A study of Mus musculus with 14 samples.

Results

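The genes described here are 3 MHC class II chain genes (H2-Aa, H2-Ab1 and H2-Eb1), the invariant chain gene Cd74, the peptide loading gene H2-DMa, the class II coactivator gene Ciita, and Irf8 and Itgax, which are used as dendritic cell genes. These 8 of 15803 named genes were chosen by name, and 90 of 194293 probe sets were annotated to 1 of them alone. Total RNA of 14 thymic lymphomas of mice had been measured on exon arrays, 7 with the strain label CD4-SB and 7 with the strain label Vav-SB. Both strains are models of T-cell acute lymphoblastic leukaemia in which Sleeping Beauty transposons move through the genome, and the series title asks how the cell of origin shapes the mutations that are selected. Every tumour therefore carried the Sleeping Beauty system, and no healthy thymus was among the samples analysed here. The promoter that drives each strain's transposase, the strains' other alleles, and the mice's age, sex and genetic background are not stated in the labels. The tumour titles carry 4 different first numbers in CD4-SB and 7 in Vav-SB, with CD4-SB replicates 1 and 2 sharing 1 number and replicates 5, 6 and 7 another. The labels do not say whether each tumour came from a separate mouse, so p-values speak only for the spread among the tumours at hand.

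MHC class II molecules are pairs of an alpha and a beta chain that show peptides from endosomes to CD4 T cells. The invariant chain Cd74 fills their groove on the way to the endosome, proteases cut it down to a short remnant, and H2-DM exchanges that remnant for peptide. Ciita does not bind DNA itself but docks on the RFX, CREB and NF-Y proteins that sit on the X and Y boxes of class II promoters. In the mouse thymus class II is carried by dendritic cells, thymic epithelium, B cells and some macrophages, while thymocytes and T cells make very little of it. Irf8 is a transcription factor needed for type 1 dendritic cells, and B cells and macrophages express it too. Itgax encodes CD11c, an integrin chain used as a marker of dendritic cells and found on some macrophages.

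A gene's level is the mean of the log2 values of its probe sets in a tumour, and a difference is Vav-SB minus CD4-SB, so that a negative value means a higher level in CD4-SB. Genes passed where limma's p, adjusted over all 15803 genes by the method of Benjamini and Hochberg, was below 0.05. The mean of all 8 genes was higher in CD4-SB, with a median difference of -1.32 on the log2 scale against 0.0 over all genes. H2-Aa, H2-DMa, Irf8 and Itgax passed and were higher in CD4-SB, while the other 4 did not pass. These 4 of 8 stand beside a background of 7.18% of all genes that passed toward CD4-SB, and 14.5% that passed in either direction. In 0 of the 8 genes did every CD4-SB tumour lie above every Vav-SB tumour, a separation seen in 1.53% of all genes. In bulk tumours, fewer cells of a type and less RNA per cell cannot be told apart. The T-cell identity of the tumours was checked with Cd3e, a chain of the T-cell receptor complex. It lay between 11.07 and 11.77 in CD4-SB and between 11.52 and 11.91 in Vav-SB. Cd3d and Cd3g, further chains of the complex, were at 11.55 and 11.48 or above in CD4-SB and at 11.70 and 11.72 or above in Vav-SB. Thy1, another T lineage gene, was less even. It fell to 8.16 in CD4-SB, where its median was 11.35, and lay between 11.49 and 12.21 in Vav-SB.

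**Figure D1:**
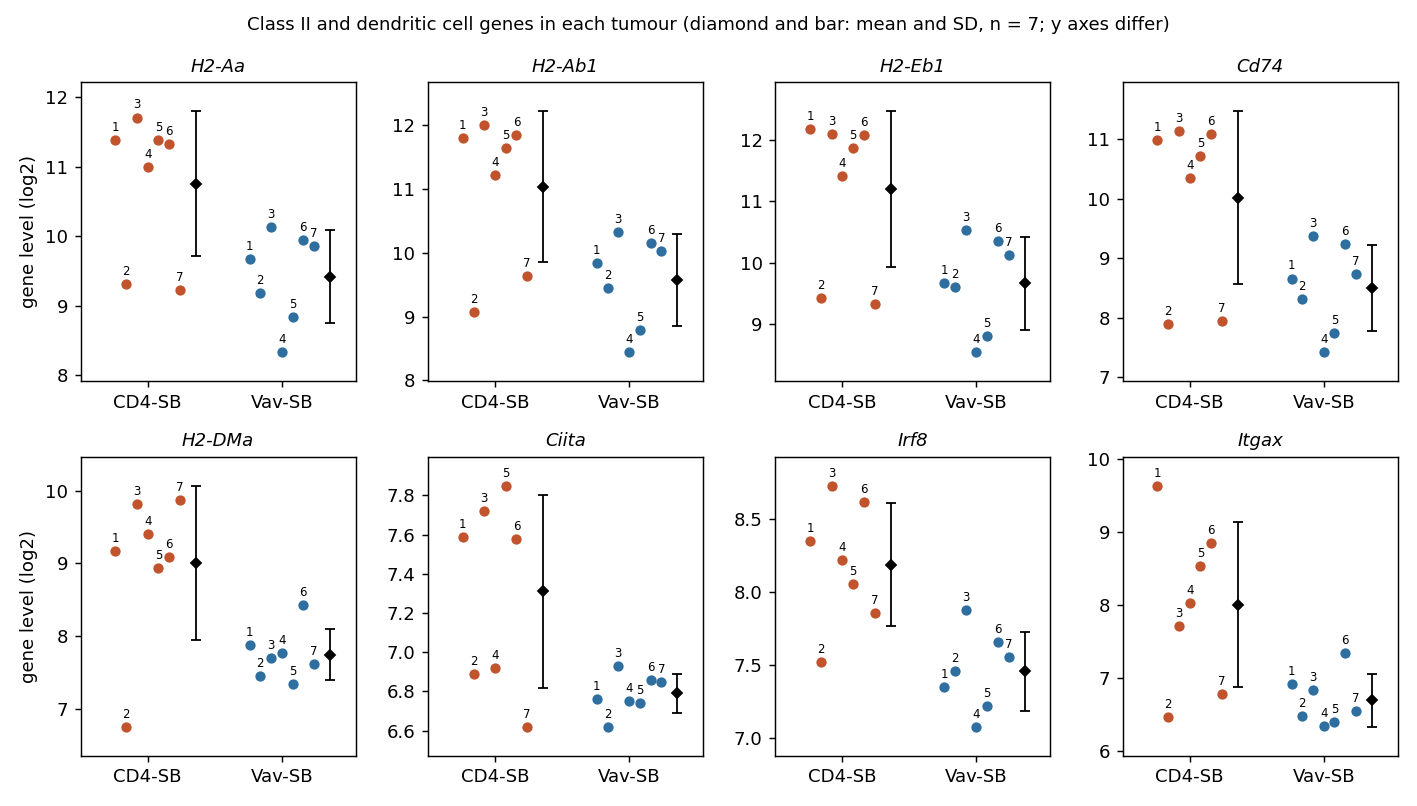
Log2 level of each of the 8 genes (y axis, one panel per gene, axes differ) in the 7 CD4-SB and 7 Vav-SB tumours; points are tumours with their replicate number, diamonds and bars are the mean and SD (n = 7). For H2-Aa, H2-Ab1, H2-Eb1 and Cd74, 5 CD4-SB tumours lie above every Vav-SB tumour and CD4-SB replicates 2 and 7 lie within the Vav-SB range.

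The class II chain genes were 2.53-fold to 2.89-fold higher in the mean of CD4-SB, but only H2-Aa passed. In CD4-SB they formed 5 tumours with high levels and 2 with low ones, and the low pair, replicates 2 and 7, lay among the Vav-SB tumours. Their promoters are shown because the X and Y boxes in them are where the proteins that recruit Ciita bind. The windows below end at the base before the RefSeq transcription start (build GRCm38.p6) and are written 5′ to 3′ on the gene's strand. Capitals mark matches, on either strand, to the Y box core GATTGG, the X box core AACNGATG and the CREB palindrome TGACGTCA. H2-DMb1 is added as the partner chain of H2-DMa.
H2-Aa, chr17:34287824-34287973, - strand: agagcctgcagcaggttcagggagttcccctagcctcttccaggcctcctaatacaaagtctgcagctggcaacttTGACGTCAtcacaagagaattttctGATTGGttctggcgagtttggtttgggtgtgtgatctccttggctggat
H2-Eb1, chr17:34305717-34305866, + strand: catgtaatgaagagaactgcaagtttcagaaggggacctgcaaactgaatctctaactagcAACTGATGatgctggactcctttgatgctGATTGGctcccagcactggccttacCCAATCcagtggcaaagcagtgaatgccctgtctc
H2-DMb1, chr17:34153041-34153190, + strand: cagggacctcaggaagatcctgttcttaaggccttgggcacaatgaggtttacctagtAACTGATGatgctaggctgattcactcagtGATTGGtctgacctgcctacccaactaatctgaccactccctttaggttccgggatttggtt
In H2-Eb1 the X box match began at position -89 and the Y box matches at -60 and, on the other strand, at -35, counted from the transcription start. In H2-DMb1 the X box match began at -92 and the Y box match at -62, a similar layout. The H2-Aa window held the CREB palindrome at -74 and the Y box at -49, and these letters of the X box were not in it. Of 32851 RefSeq promoter windows (250 bases before the start to 50 after it), 2.32% held the X box core, 16.1% the Y box core and 1.79% the palindrome. Windows were at hand for 5 of the 8 genes, and no match overlapped another. Elsewhere a Y box match was found in 1 of the windows of Irf8 (at -122) and 1 of those of H2-DMa (at -199), and no match to any of the 3 in that of Itgax. A match is a description of the letters and not a measured binding site.

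H2-Aa, the alpha chain of the I-A molecule, ran from 8.33 over a median of 9.67 to 10.14 in Vav-SB and from 9.23 over 11.33 to 11.71 in CD4-SB. CD4-SB replicates 1, 3, 4, 5 and 6 were at 11.39, 11.71, 11.00, 11.38 and 11.33, above every Vav-SB tumour, and replicates 2 and 7 at 9.31 and 9.23. The models therefore overlapped through those 2 tumours. The difference was -1.34 ± 0.42 (SE, 7 tumours a model), a 2.53-fold higher mean in CD4-SB (limma adjusted p = 0.0467). This call ended in 11 of the 14 fits that leave out 1 tumour (adjusted p up to 0.0963) and held without CD4-SB replicate 2, CD4-SB replicate 7 or Vav-SB replicate 3.

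H2-Ab1, the beta chain of I-A, ran from 8.44 over 9.84 to 10.32 in Vav-SB and from 9.07 over 11.64 to 12 in CD4-SB. Replicates 2 and 7 of CD4-SB, at 9.07 and 9.64, were again the low ones, and the next was replicate 4 at 11.22. The difference of -1.46 ± 0.47 (SE) did not pass (limma adjusted p = 0.0525, 95% interval -2.47 to -0.45). It passed without CD4-SB replicate 2 (lowest adjusted p 0.0101 over the leave-outs), CD4-SB replicate 7 or Vav-SB replicate 3. It also passed with the title number as a random block (limma adjusted p = 0.0331) and in 5 further settings. These were array weights, bright probe sets, genes above the median level and the median of a gene's probe sets in place of their mean. Also among them was 1 tumour for each title number, which leaves out CD4-SB replicates 2 and 7. With the random block the standard error was 0.43, against 0.47 in the main fit. The block thus gave no wider margin for tumours that share a number.

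H2-Eb1, the beta chain of the I-E molecule, ran from 8.54 over 9.66 to 10.53 in Vav-SB and from 9.32 over 11.86 to 12.17 in CD4-SB. CD4-SB replicates 2 and 7 stood at 9.43 and 9.32, below the Vav-SB median, and the other 5 at 11.41 or above. The difference was -1.53 ± 0.51 (SE) and did not pass (limma adjusted p = 0.0562, 95% interval -2.61 to -0.45). It passed without any 1 of the same 3 tumours as H2-Ab1, with the title number as a random block (limma adjusted p = 0.0352), and in the same further settings other than the median of probe sets. Its partner chain gene, listed on the array as H2-Ea, stayed between 4.34 and 5.09 in all 14 tumours (difference -0.14, limma adjusted p = 0.491). The 5 tumours high in H2-Eb1 were not set apart in it. Only 5.32% of all genes had a lower mean level than H2-Ea, and a signal that low may not show a split.

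Cd74, the invariant chain, followed the chain genes tumour by tumour. It ran from 7.42 over 8.66 to 9.37 in Vav-SB and from 7.90 over 10.71 to 11.14 in CD4-SB. Replicates 2 and 7 of CD4-SB, at 7.90 and 7.95, lay in the lower part of the Vav-SB range, and the other 5 between 10.35 and 11.14 lay above it. The difference was -1.52 ± 0.56 (SE), 2.87-fold, and it did not pass (limma adjusted p = 0.0824). It passed without CD4-SB replicate 2 or 7, with array weights (limma adjusted p = 0.0326) and with 1 tumour per title number (0.00207), but not with the title number as a random block (0.0557). Over pairs of the 3 chain genes and Cd74, Pearson's r across the 7 tumours of a model was 0.97 to 0.99 in Vav-SB and 0.98 to 1.0 in CD4-SB, where the 2 low tumours carry much of it. These values are a description, and the genes share the arrays on which they were measured.

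H2-DMa, the alpha chain of the peptide exchanger H2-DM, passed but did not follow that split. It ran from 7.34 over 7.70 to 8.43 in Vav-SB and from 6.75 over 9.17 to 9.87 in CD4-SB, where 6 of 7 tumours lay above every Vav-SB tumour. CD4-SB replicate 7, low in the chain genes, had the highest H2-DMa level of all 14 tumours, 9.87, while replicate 2 had the lowest, 6.75. The difference was -1.27 ± 0.38 (SE), 2.41-fold (limma adjusted p = 0.038). The call held in only 2 of the 14 leave-outs, without CD4-SB replicate 2 (adjusted p = 0.000144) or Vav-SB replicate 6, and adjusted p otherwise reached 0.0783. Pearson's r of H2-DMa with each chain gene was 0.43 to 0.45 in Vav-SB and 0.42 to 0.57 in CD4-SB.

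The pattern of H2-DMa was shared by most of its probe sets. In CD4-SB replicate 7, 4 of its 6 probe sets stood at 9.17, 10.97, 11.32 and 11.61, and in replicate 2 the same 4 stood at 4.21, 7.78, 7.51 and 6.65. Another probe set was at 5.69 and 3.74 in these tumours. The last was flat, between 9.96 and 10.80 in CD4-SB and between 9.98 and 10.56 in Vav-SB, so that the gene mean understates the spread of the others. Its beta chain partner H2-DMb1, measured by 1 probe set, stood at 10.18 in CD4-SB replicate 7 and 8.80 in replicate 2, with the other 5 CD4-SB tumours between 10.83 and 11.69. H2-DMb1 was thus not raised in replicate 7 in the way H2-DMa was.

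Ciita, the coactivator on which class II transcription depends, varied within a narrow band in Vav-SB. It ran from 6.62 over 6.76 to 6.93 there and from 6.62 over 7.58 to 7.85 in CD4-SB. CD4-SB replicates 1, 3, 5 and 6, at 7.59, 7.72, 7.85 and 7.58, were above every Vav-SB tumour, and replicates 2, 4 and 7, at 6.89, 6.92 and 6.62, were within the Vav-SB range. The difference was -0.52 ± 0.18 (SE), 1.44-fold, and it did not pass (limma adjusted p = 0.0626). It passed without CD4-SB replicate 2, 4 or 7 and with the title number as a random block (limma adjusted p = 0.034). It also passed with a median over probe sets (limma adjusted p = 0.0404) and array weights (0.0194). With 1 tumour per title number, which leaves out CD4-SB replicates 2 and 7, it passed too (limma adjusted p = 0.0104). CD4-SB replicate 4 stands out in this set: H2-Aa, H2-Ab1 and H2-Eb1 were at 11.00, 11.22 and 11.41, among the 5 high tumours, while its Ciita level was that of the Vav-SB tumours.

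Irf8 was 1.66-fold higher in CD4-SB and was the 1 gene of the 8 whose call held in all 14 leave-outs. It ran from 7.08 over 7.46 to 7.88 in Vav-SB and from 7.52 over 8.22 to 8.73 in CD4-SB. CD4-SB replicates 2 and 7 were again lowest, at 7.52 and 7.86, and the other 5 were above every Vav-SB tumour. The difference was -0.73 ± 0.18 (SE, limma adjusted p = 0.0135), with adjusted p from 0.00383 to 0.0329 over the leave-outs. All 7 CD4-SB tumours lay above the Vav-SB mean of 7.46 ± 0.27 (SD, n = 7).

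Itgax, the CD11c gene, spread widely in CD4-SB. It ran from 6.34 over 6.55 to 7.34 in Vav-SB and from 6.46 over 8.03 to 9.63 in CD4-SB. CD4-SB replicate 1 was highest at 9.63, replicates 6, 5, 4 and 3 followed at 8.85, 8.53, 8.03 and 7.71, and replicates 7 and 2 at 6.78 and 6.46 lay within the Vav-SB range. The difference was -1.31 ± 0.41 (SE), 2.47-fold (limma adjusted p = 0.0437). The call held without CD4-SB replicate 2, CD4-SB replicate 7 or Vav-SB replicate 6 and ended in the other 11 leave-outs (adjusted p up to 0.0878) and with a median over probe sets (0.0567).

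The number of the 8 genes that passed thus turned on single tumours. Without CD4-SB replicate 2 all 8 passed, and without replicate 7 it was 7. Without Vav-SB replicate 3 it was 4, without Vav-SB replicate 6 it was 3, and without CD4-SB replicate 4 it was 2. Only Irf8 passed without CD4-SB replicates 1, 3, 5 or 6 or Vav-SB replicates 1, 2, 4, 5 or 7. All 8 differences kept their sign in each of these fits. The SD among tumours was larger in CD4-SB for 8 of the 8 genes, and for 73.5% of all genes. The low tumours do not follow the title numbers: CD4-SB replicate 2 shares its number with the high replicate 1, and replicate 7 with the high replicates 5 and 6.

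Single probe sets, each of which mostly covers 1 exon, showed the difference along the genes. Of the 90 probe sets, 88 had the higher mean in CD4-SB, and 18 passed there (limma, adjusted over all probe sets), beside a background of 3.88% toward CD4-SB and 8.45% in either direction. By gene, 6 of 28 passed for Itgax, 4 of 9 for Irf8, 3 of 12 for Cd74, 2 of 6 for H2-DMa, and 1 each for H2-Aa, H2-Ab1 and Ciita. For H2-Eb1 0 of 5 passed in limma, although all 5 had an unadjusted p under 0.05. Differences were close to each other in the probe sets of H2-Eb1 (-1.93 to -1.22), H2-Ab1 (-1.78 to -1.04) and Cd74 (-1.85 to -1.08). They spread most in Itgax (-2.56 to -0.12), H2-DMa (-2.02 to -0.19) and Ciita (-1.55 to 0.23). The 2 probe sets with the higher mean in Vav-SB were both of Ciita, and neither passed.

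**Figure D2:**
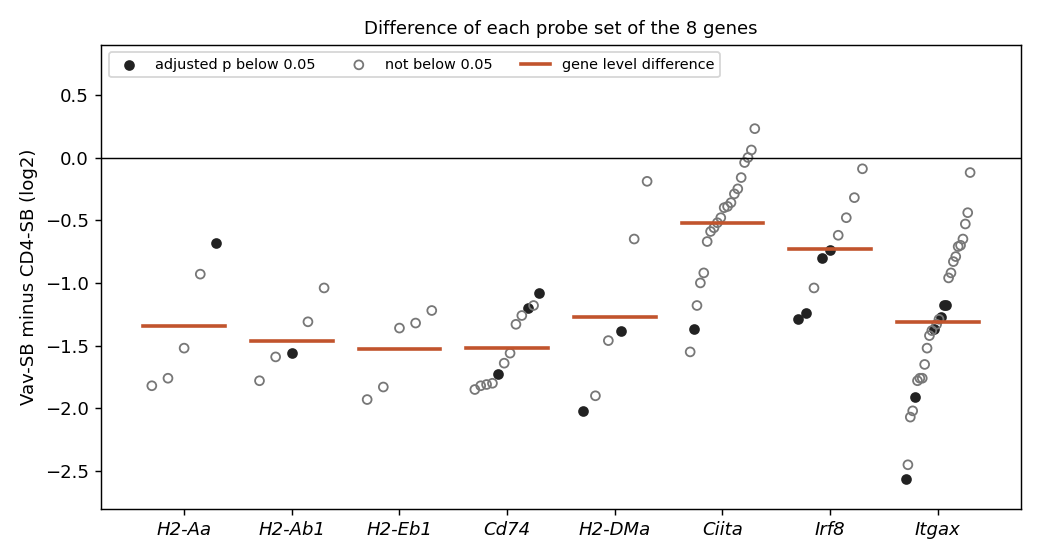
Difference of each probe set (y axis, Vav-SB minus CD4-SB, log2) by gene (x axis); filled points passed in limma, open points did not, and the bar is the difference of the gene mean. Of 90 probe sets, 88 lie below 0, and the spread is narrow in H2-Eb1, H2-Ab1 and Cd74 and wide in Itgax, H2-DMa and Ciita.

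Genes that build and load class II molecules were looked at as a list, whose 11 entries included 5 of the 8 genes. Of its 9 measured genes, 4 were higher in CD4-SB, 0 in Vav-SB and 5 did not pass, with a median difference of -1.34 against 0.0 over all genes. These counts and the median include H2-Aa and H2-DMa, which are described above. Without the 5 genes, 2 of 4 measured genes passed, H2-DMb1 and H2-DMb2, both higher in CD4-SB, while H2-Ea and H2-Oa did not pass. In limma, 7 of the 9 had an unadjusted p under 0.05, and in none of those 7 was Vav-SB higher. H2-DMb1 was 2.97-fold higher (-1.57 ± 0.45 SE, limma adjusted p = 0.0293), though its groups overlapped at CD4-SB replicates 2 and 7. H2-DMb2, its near-identical neighbour, was 1.52-fold higher with every CD4-SB tumour, 8.09 to 8.93, above every Vav-SB tumour, 7.43 to 7.97 (limma adjusted p = 0.00677). Both were measured by 1 probe set and may share signal. The H2-DMb1 call ended in 8 of the 14 leave-outs (adjusted p up to 0.064), and that of H2-DMb2 held in all 14. Without CD4-SB replicate 2, 7 genes of the list passed, and without Vav-SB replicate 7 or CD4-SB replicate 4 it was 2. It was 1 without CD4-SB replicates 1, 3, 5 or 6 or Vav-SB replicates 1, 2, 4 or 5. H2-Oa, a chain of the H2-O protein that holds H2-DM back, averaged 8.66 ± 0.60 (SD) in Vav-SB and 8.44 ± 0.66 in CD4-SB (limma adjusted p = 0.7).

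Genes of lysosomal processing and class II turnover were tested as another list. All 9 had the higher mean in CD4-SB, 4 passed (Ctss, Ifi30, Ctsh and Ctsz), and the median difference was -0.66. Ctss, the protease that trims the invariant chain in dendritic cells and B cells, ran from 9.92 to 11.19 in Vav-SB and from 11.30 to 12.50 in CD4-SB. It was 2.48-fold higher (limma adjusted p = 0.00165), and CD4-SB replicates 2 and 7, at 11.44 and 11.30, were above every Vav-SB tumour. Ifi30, a thiol reductase that opens disulfide bonds of antigens, was 2.52-fold higher with no overlap (limma adjusted p = 0.00144), and replicates 2 and 7 stood at 10.52 and 10.11. The 2 tumours that were low in the chain genes were therefore above the Vav-SB range in both enzymes. Without Vav-SB replicate 3, 7 of the 9 genes passed, and the calls of Ctss, Ifi30 and Ctsh held in all 14 leave-outs. The Ctsz call ended in 4 of them (adjusted p up to 0.056), without CD4-SB replicate 6 or Vav-SB replicates 2, 4 or 5, where 3 genes passed.

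Apart from Ciita itself, no measured gene of the class II transcription list had the higher mean in CD4-SB. Of 9 measured genes of the transcription list, Ciita included, 2 were higher in Vav-SB (background 7.28% of genes), 0 in CD4-SB and 7 did not pass, and the median difference was 0.29. In limma 6 of the 9 had an unadjusted p under 0.05, and Ciita was the 1 of those 6 that was higher in CD4-SB. Creb1, which binds the palindrome in the X region, was 1.43-fold higher in Vav-SB (limma adjusted p = 0.0171), and Nfya, a subunit of the Y box factor NF-Y, 1.28-fold (adjusted p = 0.04). The Creb1 call held in all 14 leave-outs, and that of Nfya ended in 9 of them (adjusted p up to 0.0825). The RFX subunit genes Rfx5, Rfxap and Rfxank differed by 0.29, 0.02 and 0.07 (limma adjusted p = 0.128, 0.961 and 0.741). Irf1, which drives Ciita after interferon, differed by 0.09 (adjusted p = 0.82), Usf1 by 0.33 (adjusted p = 0.0656) and Nfyb, another NF-Y subunit, by 0.53 (adjusted p = 0.134).

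Few other genes by which dendritic cells are defined passed beside Itgax. Of 10 core genes, Itgax included, 1 was higher in CD4-SB (Itgax) and 1 in Vav-SB, and the median difference was -0.45. The gene higher in Vav-SB was Dpp4, a surface peptidase that thymocytes also carry, at 2.14 (limma adjusted p = 0.00538). Counts in this and the following lists stand beside 7.18% of all genes that passed toward CD4-SB and 7.28% toward Vav-SB. A single call in a list of this size is near those shares. Zbtb46, a transcription factor largely restricted to conventional dendritic cells, differed by -0.21 and Flt3, the receptor for their growth factor, by -0.64 (limma adjusted p = 0.089 and 0.263). The defining markers of single subsets did not pass either. Xcr1 and Clec9a of type 1 cells differed by -0.48 and -0.65, Cd209a of type 2 cells by -0.12 and Siglech of plasmacytoid cells by -0.24 (limma adjusted p = 0.281, 0.405, 0.429 and 0.195). Without CD4-SB replicate 7, 4 of the 10 core genes passed toward CD4-SB. Among the 7 dendritic cell markers used to check the name of this gene set, Itgax was the 1 that passed.

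The type 1 dendritic cell list, which includes Irf8, had the largest median of the dendritic cell lists, -0.88, with all 10 measured genes higher in the mean of CD4-SB. Of these, 4 passed in limma and all were higher in CD4-SB: Irf8, the integrin gene Itgae at -1.44 (adjusted p = 0.0274), the double-stranded RNA receptor gene Tlr3 at -1.11 (adjusted p = 0.0261), and the amidase gene Naaa with a 2.01-fold difference (adjusted p = 0.0118). Whether dendritic cells or other cells of the tumours carried these transcripts was not tested. The mean level of the list without Irf8 was 7.46 and 7.49 in CD4-SB replicates 2 and 7, 8.17 to 9.01 in the other 5, and 7.01 to 7.98 in Vav-SB. CD4-SB replicate 4, with its low Ciita, was at 8.62. The split of CD4-SB into 5 and 2 tumours was thus present in this list too. The Naaa call held in all 14 leave-outs, while those of Itgae and Tlr3 ended in 5 and 4 of them, and 2 genes of the list passed without CD4-SB replicate 6 or Vav-SB replicates 4 or 5.

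Of 8 type 2 genes 1 was higher in CD4-SB, Sirpa at -0.81 (limma adjusted p = 0.0325), with a list median of -0.20, and its call ended in 7 of the 14 leave-outs (adjusted p up to 0.0704). This single call, too, is near the background share. Of 11 plasmacytoid genes 3 were higher in CD4-SB (Bst2, Tlr7 and Lair1) and 1 in Vav-SB, the chemokine receptor gene Ccr9 of thymocytes and plasmacytoid cells at 2.34 (limma adjusted p = 0.0134), with a median of -0.43. The Bst2 call ended in 11 of the 14 leave-outs (limma adjusted p up to 0.0876), and the count toward CD4-SB fell to as few as 2, while those of Tlr7, Lair1 and Ccr9 held in all 14. Of 11 genes of mature dendritic cells and costimulation 2 were higher in CD4-SB, with a median of -0.79. These were Cd80, a ligand of CD28, at -0.93 (limma adjusted p = 0.0249) and the cytokine gene Il15 at -0.83 with no overlap between models (adjusted p = 0.0103). Without CD4-SB replicate 7 the plasmacytoid and mature lists each had 5 genes higher in CD4-SB, and the Cd80 call ended without CD4-SB replicate 5 or Vav-SB replicates 4, 5 or 7. The mean level of the mature list was 6.87, 6.97 and 6.63 in CD4-SB replicates 2, 4 and 7, against 7.87 to 8.25 in the other 4 and 6.44 to 7.38 in Vav-SB.

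Markers of other cells that can carry class II were also higher in the mean of CD4-SB. All 15 macrophage genes had the higher mean in CD4-SB and 8 passed there, among them Fcgr3, Msr1 and C1qa, with a median difference of -0.71. The macrophage list level was 8.61 to 9.19 in CD4-SB and 7.61 to 8.55 in Vav-SB, with no overlap, and CD4-SB replicates 2 and 7 were at 8.83 and 8.65, among the other CD4-SB tumours. Of 11 B cell genes all had the higher mean in CD4-SB and 1 passed, Fcrla, with a median of -0.74. That single call is near the background share of 7.18%. The B cell list level was 6.67, 6.83 and 6.42 in CD4-SB replicates 2, 4 and 7, near the 6.51 to 6.79 of Vav-SB, and 7.61 to 8.32 in the other 4. The tumours high in the B cell list were thus the 4 that were high in Ciita. Without CD4-SB replicate 2 the B cell count was 6, without replicate 7 it was 5, and without CD4-SB replicate 4 or Vav-SB replicate 3 it was 2. In the fit on all 14 tumours, the defining B cell genes Cd79b, Ms4a1 and Pax5 did not pass. They differed by -1.15, -1.27 and -0.27 (limma adjusted p = 0.0581, 0.0736 and 0.256). Ighm of the list did not pass either, at -1.1 (limma adjusted p = 0.0636). The immunoglobulin heavy chain locus Igh, outside the list, did pass toward CD4-SB, at -2.54 (limma adjusted p = 0.00503). Igh was picked by its likeness to the class II genes, described below.

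Thymic epithelium, the other class II bearing tissue of the thymus, gave a mixed picture. Of 9 measured genes 1 was higher in CD4-SB, the keratin gene Krt5 at -1.02 (limma adjusted p = 0.0114), and the list median was 0.02. That single call is near the 7.18% of all genes that passed toward CD4-SB. In limma 4 of the 9 had an unadjusted p under 0.05, 3 of them higher in CD4-SB and 1 in Vav-SB. Krt14 and Epcam differed by -0.85 and -1.06, and Psmb11 by 0.45 (limma adjusted p = 0.0916, 0.133 and 0.176). The defining regulators of thymic epithelium, Foxn1 and Aire, differed by 0.09 and 0.02 (limma adjusted p = 0.588 and 0.898). Of 7 granulocyte genes 0 passed in limma, with 1 at an unadjusted p under 0.05, with a median of -0.11. Of 10 endothelial and fibroblast genes Dcn was higher in CD4-SB and Pecam1 in Vav-SB, with a median of -0.27, and the Dcn call ended in 7 of the 14 leave-outs. Single calls in each direction are near the background shares here as well. Of 9 T lineage genes 3 were higher in Vav-SB (Cd3g, Cd2 and Lat), with a median of 0.39 and list levels of 10.56 to 10.97 in Vav-SB and 9.88 to 10.54 in CD4-SB. The Cd2 call ended in 11 of the 14 leave-outs, and those of Cd3g and Lat in none. Array values have no true zero, so no marker can be said to be absent.

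**Figure D3:**
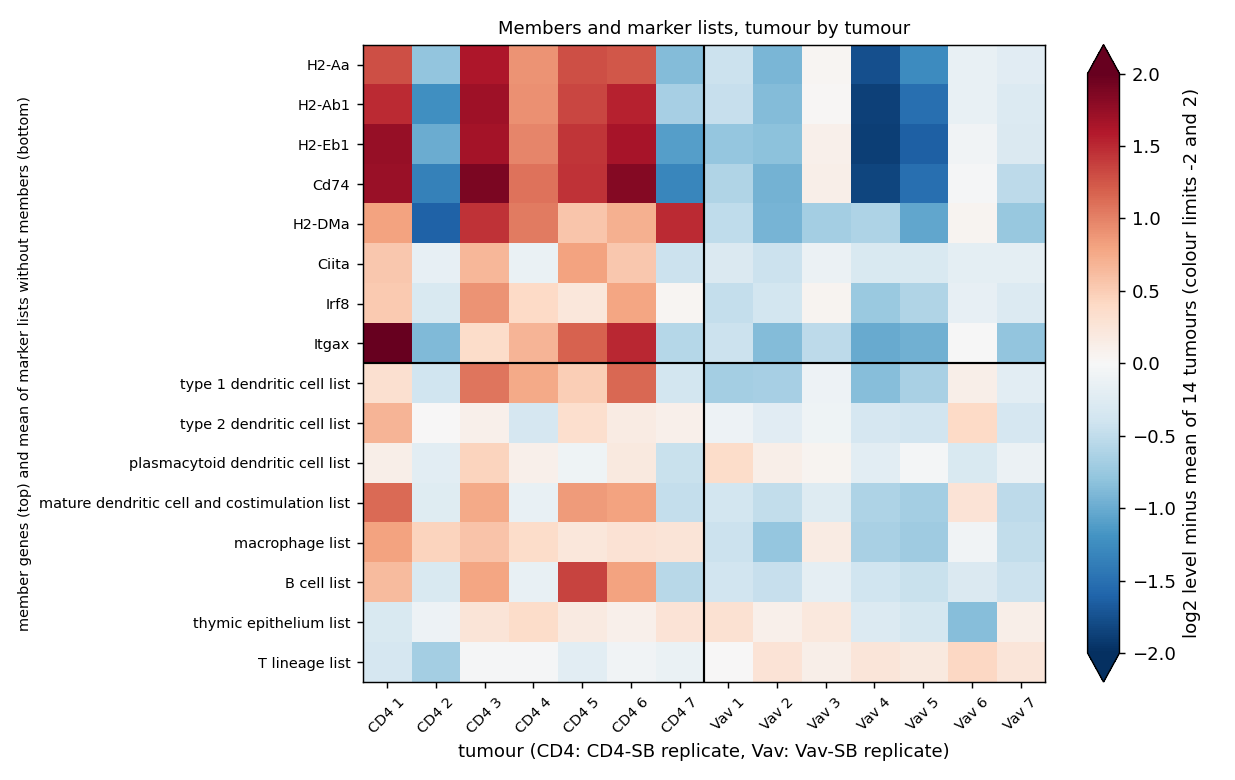
Log2 level minus the mean of all 14 tumours (colour) for the 8 genes (top) and for the mean of marker lists without those genes (bottom), in each tumour (x axis). CD4-SB replicates 2 and 7 are low in the chain genes, Cd74 and the type 1 dendritic cell list but not in the macrophage list, and replicate 4 is high in the chain genes and low in Ciita and the B cell list.

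The size of the differences depended on which of these list levels was held constant in the fit. With the macrophage list as a covariate, H2-Aa went from -1.34 to -0.07 ± 0.72 (SE), Cd74 from -1.52 to 0.05 ± 0.97 and Irf8 from -0.73 to -0.20 ± 0.30. H2-DMa kept the most, -0.90 ± 0.74 (limma adjusted p = 0.661). The macrophage list separated the models without overlap, and the standard errors grew accordingly, so the list level and the model can hardly be told apart in that fit. In limma 0 of the 8 genes passed there, with 0 at an unadjusted p under 0.05. Few genes of any kind passed in that fit, 83 of 15803. With the B cell list as a covariate, the chain genes were at -0.36 to -0.39 and Cd74 at -0.21, while H2-DMa stood at -1.02 ± 0.49 (SE). There 0 passed in limma, with 1 at an unadjusted p under 0.05. Of all 15803 genes, 1035 passed with that list. Ciita was at -0.02 ± 0.08 (SE) with the B cell list, and its standard error fell from 0.18.

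The remaining list levels acted differently from each other. The type 1 dendritic cell list without Irf8, an alternative added after the data had been seen, took the chain genes to between -0.06 and -0.00 with smaller standard errors (H2-Aa 0.30 against 0.42) and Cd74 to 0.20 ± 0.37. H2-DMa and Itgax were at -0.63 and -0.46 there, and 0 of the 8 passed in limma or had an unadjusted p under 0.05. Of all 15803 genes, only 545 passed in that fit. With the thymic epithelium list the 8 differences stayed between -1.51 and -0.55, and Irf8 and Itgax passed (limma adjusted p = 0.0301 and 0.0426), beside 2039 of all genes. With the endothelium and fibroblast list the 8 differences were -1.10 to -0.41. There 0 of the 8 passed in limma, with 5 at an unadjusted p under 0.05, beside 1410 of all genes that passed. With the T lineage list, also added afterwards, the 8 differences were -2.69 to -0.67, and 2 passed: H2-DMa at -2.69 ± 0.38 (SE, limma adjusted p = 0.0025) and Irf8 at -1.19 ± 0.24 (adjusted p = 0.0212). Of all genes, 503 passed there. H2-Aa, at -2.08 ± 0.64 (SE), and Itgax, at -1.84 ± 0.64, lost their calls there (limma adjusted p = 0.0926 and 0.133). The T lineage list, too, separated the models without overlap, so its level and the model can hardly be told apart in that fit either. The lists hold genes that several of these cell types share, and the part that any 1 cell type has in the differences was not tested.

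**Figure D4:**
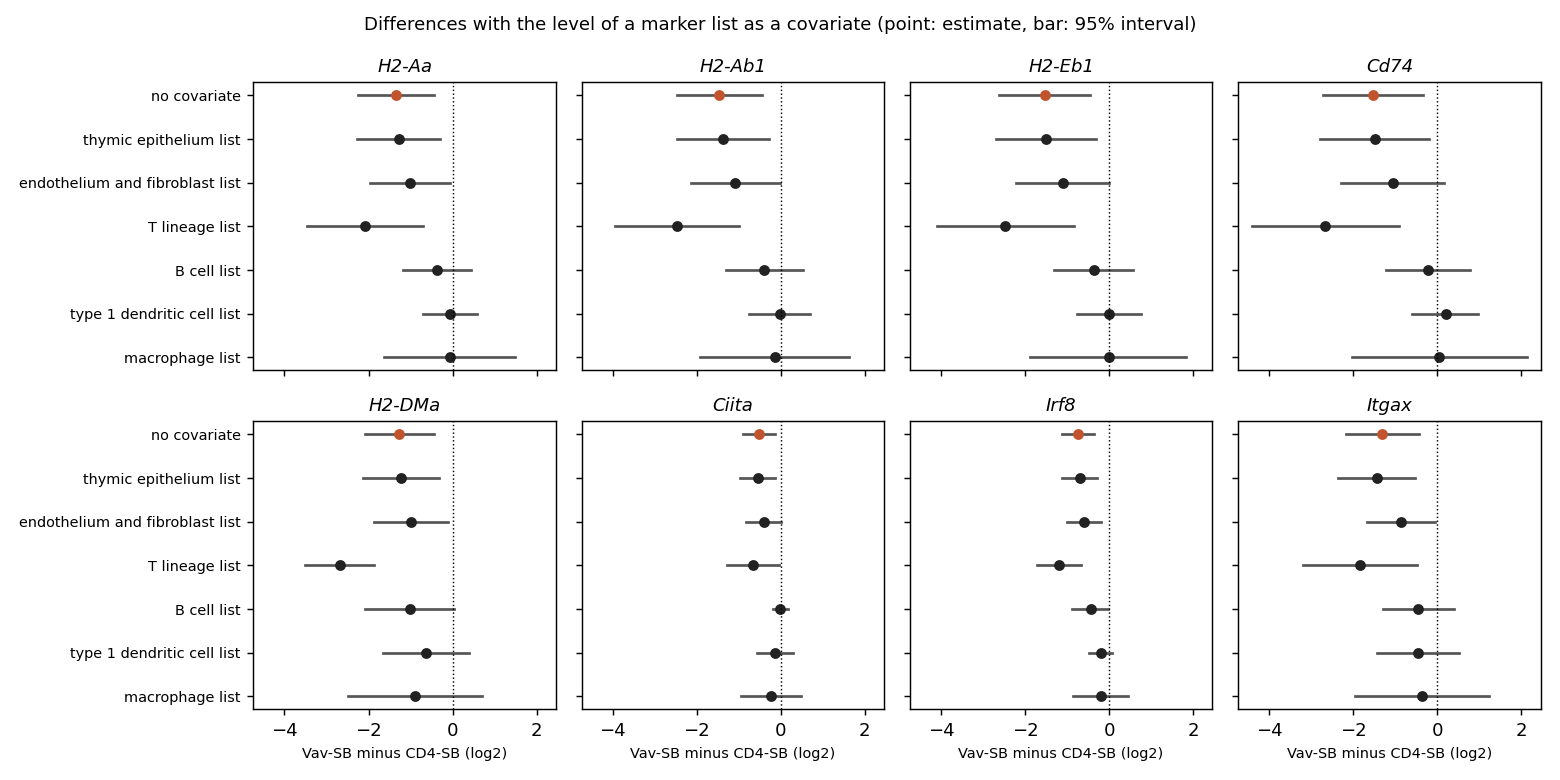
Difference (x axis, Vav-SB minus CD4-SB, log2) of each of the 8 genes without a covariate (top point) and with the mean level of 1 marker list as a covariate; points are estimates and bars 95% intervals. The intervals include 0 for all 8 genes with the macrophage list and with the type 1 dendritic cell list, and stay below 0 for all 8 with the thymic epithelium list.

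Over the chain genes and Cd74, the widest gap between neighbouring tumours was 1.57 to 2.40 in CD4-SB, always between 2 low and 5 high tumours, and 0.51 to 0.80 in Vav-SB. Relations between genes are therefore given within Vav-SB, over 7 tumours. Irf8 followed H2-Eb1 with Pearson's r = 0.96 and Spearman's rho = 0.96 (exact permutation p = 0.000794 for r and 0.00278 for rho, two-sided; adjusted 0.031 for both over 78 relations). Without the 2 tumours farthest from the Irf8 median, r was 0.96. It followed H2-Aa and H2-Ab1 with r = 0.91, and Cd74 with r = 0.94, each with rho = 0.96 (adjusted exact permutation p for r = 0.0396, 0.031 and 0.031, for rho 0.031). Without the 2 farthest tumours these were 0.82, 0.86 and 0.89. With H2-DMa, r was 0.33 and rho 0.21 (adjusted exact permutation p = 0.661 and 0.748).

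Ciita did not follow the chain genes past the threshold in Vav-SB. Its r with H2-Aa was 0.66 and rho 0.86 (adjusted exact permutation p = 0.209 and 0.116). With the macrophage list Ciita had r = 0.87 and rho = 0.96 (adjusted exact permutation p = 0.0546 and 0.031), and r was 0.74 without the 2 farthest tumours. Itgax had r = 0.80 with Cd74 and 0.87 with H2-DMa (adjusted exact permutation p = 0.0887 and 0.058), the latter falling to 0.32 without the 2 farthest tumours. The 78 relations include 39 taken over all 7 CD4-SB tumours, and 5 of these had an adjusted exact permutation p below 0.05 for r or rho, as did 5 of the 39 in Vav-SB. The 5 in CD4-SB were Irf8 with H2-Ab1 and Cd74 (adjusted exact permutation p = 0.031 for r and rho), Ciita with H2-Aa and with the B cell list (0.0332 and 0.031 for r, 0.096 for rho in both), and the B cell list with H2-Aa (0.0387 for r, 0.208 for rho). Their coefficients are not given, because they span the gap between the 5 high and the 2 low tumours, and neither set is large enough to test a relation within it. Whether the relation of Ciita to H2-Aa differs between the models was not tested.

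Likeness to the genes was taken as Pearson's r over 14 tumours after each model's mean had been removed, as a description with no test. The gap between the 5 high and the 2 low CD4-SB tumours stays in these values and can carry much of an r with the class II genes. To the mean of the 3 chain genes, Cd74 and H2-DMa, the most alike were H2-DMb1 (r = 0.939), the class I gene H2-D1 (0.927) and Cyria (0.924). Gsap (0.913), Tbc1d9 (0.91), Gsdmd (0.904) and Ms4a4c (0.902) came next. Chst15 (0.898), Cd86 (0.894), Klra2 (0.894), the immunoglobulin heavy chain locus Igh (0.89) and Tlr3 (0.89) completed the 12. Of these 12, Chst15 and Gsdmd had nearly equal means in both models, with differences of 0.0 and -0.08 (limma adjusted p = 0.997 and 0.851). Their levels thus went with the class II genes among the tumours of the models, the CD4-SB gap included, and not between the models.

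Among the 8 genes themselves, Irf8 had r = 0.907 to that mean, Itgax 0.806, Ciita 0.75 and H2-DMa, which is in the mean, 0.597. The genes most like Itgax were Cxcl16 (0.943), Rtn1 (0.925), Lgals3bp (0.92), Dpysl3 (0.917) and Nadk (0.913). Those most like Irf8 were Clec1a (0.939), Mfn2 (0.934), Cyria (0.921), Tlr3 (0.917) and H2-DMb1 (0.912). Irf8 and Itgax had r = 0.613 with each other, and 0 of the 5 genes nearest to one was among the 5 nearest to the other.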

How the data were processed

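The authors deposited log2 values, 1 per probe set and tumour, for which the submitters' processing notes name RMA and Partek without versions. RMA corrects background, brings arrays to a common distribution and combines probes into probe sets. The log base is not given in the sources used here and was read from the range of the values, 2.03 to 14.03. Column medians of 7.46 to 7.50 mean that a change in a tumour's total RNA cannot be seen. Per the labels' protocols, RNA of frozen tumours was amplified to cDNA from a small input before hybridisation, which adds spread between arrays. With 7 arrays per model, their number limits the precision.

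Of 194293 probe sets, 179496 had 1 gene symbol, 1328 several and 13469 none in the platform annotation, and only the first were used. Symbols were updated through a RefSeq gene table of GRCm38.p6 (13727 current, 2017 updated, 32 ambiguous, 22 left as they were since the newer symbol was taken, 5 unmatched). Gene means over a median of 9 probe sets gave 15803 genes, with no filter on low values. The labels name an earlier mouse build, so no gene coordinates are given, and promoter windows are RefSeq's with their own build.

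Genes and probe sets were tested with limma 3.58.1 (lmFit, eBayes) in R 4.3.3 on all 14 tumours, and groups come from the strain label. Replicates were numbered in accession order. The fit was tested on simulated data. The rule for named genes takes the 8 genes, every gene of the class II chain and transcription lists, up to 4 passing genes per marker list, and the 12, 5 and 5 genes most like the class II mean, Itgax and Irf8; further list members are named as markers. The 8 genes, the lists and the alternatives were chosen with earlier results of these data known. List counts are over the genes measured. Alternatives changed the gene summary, the filter, the normalization, the variance prior, array weights, the tumours used, and list levels as covariates; 2 of these were added after the data had been seen.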

Additional observations from a re-analysis of the deposited data

Results flagged for a closer look

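Dixon's test was run within each model on 46 genes and the levels of 14 lists, in 120 groups of 7 tumours, and chance flags about 1 group in 20. It singled out 6 values, about as many as chance alone would flag, so none of them is a finding by itself. H2-DMa was at 6.75 in CD4-SB replicate 2, far below the 8.93 to 9.87 of the other 6 CD4-SB tumours. The cathepsin gene Ctsz was at 10.95 in CD4-SB replicate 1, against 9.83 to 10.30 in the others. The endothelium and fibroblast list was at 8.47 in CD4-SB replicate 1, which also had the highest Itgax level, against 7.30 to 7.80. In Vav-SB replicate 6 the dendritic cell core list without Itgax was at 8.09, against 7.28 to 7.58, and the type 2 dendritic cell list at 7.14, against 6.35 to 6.66. That tumour had the highest Itgax and H2-DMa levels of Vav-SB, 7.34 and 8.43, but not the highest chain genes. The T-cell receptor gene Cd3g was at 11.72 in Vav-SB replicate 3, against 12.04 to 12.13, and this tumour had the highest H2-Aa, H2-Ab1, H2-Eb1, Cd74, Ciita and Irf8 levels of Vav-SB.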

How the results depend on the processing

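All 8 differences pointed toward CD4-SB under each alternative, except that Cd74 turned to 0.05 with the macrophage list and 0.20 with the type 1 dendritic cell list as covariates. Of the 8 genes, 4 passed in the main setting, and 1 to 8 when 1 tumour was left out. It was 8 with array weights, 7 with the title number as a random block and 8 with 1 tumour per title number, which drops CD4-SB replicates 2, 6 and 7 and so both low tumours. With covariates it was 0 (macrophage, B cell, endothelium and fibroblast, type 1 dendritic cell) or 2 (thymic epithelium, T lineage, Y-linked). A median over probe sets gave 5, genes above the median level 6 of the 7 left in, and bright probe sets 6. With the title number as a random block, the standard errors of all 8 genes were smaller than in the main fit. That setting was therefore no stricter toward tumours that share a number. Of all genes 2284 passed, 1628 to 2518 with 1 tumour left out, and 83 with the macrophage list, 1035 with the B cell list, 1410 with the endothelium and fibroblast list, 545 with the type 1 dendritic cell list and 503 with the T lineage list as covariates. Of the 2 Y-linked genes measured, 0 passed in limma, with 0 at an unadjusted p under 0.05. Their mean level was 9.26 in CD4-SB replicate 3 and 9.28, 9.49 and 9.41 in Vav-SB replicates 4, 5 and 6. It was 4.45 to 4.70 in the other CD4-SB tumours and 4.53 to 4.62 in the other Vav-SB tumours. Fewer CD4-SB than Vav-SB tumours thus had a high level, and whether that split goes beyond chance was not tested.

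With the macrophage list as a covariate the sign turned for H2-DMb1 (0.0), H2-Ea (0.0), Ctsz (0.15), Sirpa (0.16), Ccr9 (-0.17), Dcn (0.36), Nfyb (-0.26) and Rfxap (-0.27). With the T lineage list it turned for H2-Oa (-0.78), Rfxank (-0.09), Irf1 (-0.36) and Rfxap (-0.15). A median over probe sets turned Rfxank (-0.06), Irf1 (-0.03) and Rfxap (-0.11). Rfxap, near 0 throughout, also turned with bright probe sets (-0.07), 1 tumour per title number (-0.02), and the B cell (-0.10), endothelium (-0.14) and Y-linked (-0.07) lists, and ran from -0.10 to 0.13 over the leave-outs. Irf1 turned with 1 tumour per title number (-0.08), the Y-linked list (-0.02), and ran from -0.01 to 0.23 over the leave-outs. The causes were not tested. No paired analysis was possible because replicate numbers were given in accession order and the title numbers of the 2 models do not meet.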
